A study of Mus musculus with 6 samples.

Results

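The tripartite motif (Trim) genes encode a large family of mostly ubiquitin ligases, and their messenger RNA was compared here between CD45+ cells of mouse spleen and of mesenteric lymph node (mLN). Members were the genes whose identifier maps in GENCODE mouse M21 to the symbol Trim followed by a number and an optional letter. The rule gave 68 members among the 55487 gene identifiers of each table. Of these, 43 had enough counts to be tested, in a fit over 14427 genes. By known role, 16 members were placed as interferon-linked, 2 as erythroid and 50 as the remainder, with earlier results of these data known.

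The samples were 3 RNA-seq libraries of spleen and 3 of mLN, from wild-type C57BL6/J mice. Each held freshly prepared total hematopoietic cells carrying CD45, the leukocyte surface antigen encoded by Ptprc. All 6 libraries shared the genotype, strain and CD45 selection, so that only the organ differed by label. Nothing in the labels ties the replicates to separate mice. The p-values therefore reflect the variation among these libraries alone, and that variation may be technical. In bulk RNA, fewer cells of a type and less RNA per cell cannot be told apart.

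Most TRIM proteins have a RING domain, which transfers ubiquitin, followed by B-box zinc fingers and a coiled coil, and they differ mainly in their C-terminal domain. Type I interferon induces many of them in leukocytes, where they detect viral components, block retroviral capsids or tune the signalling that leads to interferon. Others act elsewhere: Trim28, Trim24 and Trim33 work on chromatin, and Trim10 and Trim58 act in the late maturation of red blood cells.

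The promoters of the interferon-linked members are shown because many of them hold a match to a motif known from interferon-induced genes. Sequences are from RefSeq (GRCm38.p6), in windows of 250 bases before to 50 bases from the start site, where position 0 is the first transcribed base. The table held 67 windows for 53 of the 68 members. The searched core of the interferon-stimulated response element (ISRE) was GAAA, any 2 bases and GAAA, on both strands. It was found in 9 of 16 windows of interferon-linked members, belonging to 8 of 15 genes, in 0 of 2 erythroid windows and in 1 of 49 remaining windows, that of Trim2. Among all 32851 windows of the table, 3.44% held it. The runs below span 100 bases each, and the capitals mark the ISRE core, extended where matches overlap.
Trim30a chr7:104465164-104465263 (minus strand): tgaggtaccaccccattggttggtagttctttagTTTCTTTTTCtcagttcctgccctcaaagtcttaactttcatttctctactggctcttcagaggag
Trim30d chr7:104507820-104507919 (minus strand): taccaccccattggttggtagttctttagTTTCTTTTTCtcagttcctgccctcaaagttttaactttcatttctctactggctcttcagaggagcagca
Trim12a chr7:104315466-104315565 (minus strand): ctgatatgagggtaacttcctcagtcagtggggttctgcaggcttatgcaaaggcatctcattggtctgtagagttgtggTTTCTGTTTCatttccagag
Trim12c chr7:104353320-104353419 (minus strand): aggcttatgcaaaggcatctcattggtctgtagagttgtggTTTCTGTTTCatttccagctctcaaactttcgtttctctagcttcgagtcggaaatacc
Trim5 chr7:104288077-104288176 (minus strand): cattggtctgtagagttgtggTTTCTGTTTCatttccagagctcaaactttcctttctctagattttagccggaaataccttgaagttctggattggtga
Trim34a chr7:104244387-104244486 (plus strand): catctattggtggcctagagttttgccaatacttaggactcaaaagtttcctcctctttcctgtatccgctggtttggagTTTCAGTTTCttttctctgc
Trim21 chr7:102565453-102565552 (minus strand): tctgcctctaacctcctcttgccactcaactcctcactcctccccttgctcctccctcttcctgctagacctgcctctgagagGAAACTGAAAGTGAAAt
Trim26 chr17:36836976-36837075 (plus strand): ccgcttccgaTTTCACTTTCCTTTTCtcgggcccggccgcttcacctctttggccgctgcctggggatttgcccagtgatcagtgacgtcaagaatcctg
A match describes these letters and is not evidence of binding. In the 5 genes on the minus strand at the chromosome 7 cluster the match reads in the same orientation, and the Trim5 and Trim12a windows share an identical run of 241 bases. The Trim30a and Trim30d windows share a run of 118 bases. The window of Trim30c, their neighbour, held no ISRE core, and is printed for comparison without capitals. It did hold 1 match, first base at -62, to a second searched motif, the gamma-activated sequence (GAS, TTCNNNGAA with N any base). That match lies in the printed run and is not marked. GAS was found in 2 of 16 windows of interferon-linked members and in 8.30% of all windows.
Trim30c chr7:104400749-104400848 (minus strand): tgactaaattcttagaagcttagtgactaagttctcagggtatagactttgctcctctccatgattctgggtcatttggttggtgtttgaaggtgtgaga

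Across the family, changes went in both directions and were mostly small. In mLN 9 of the 43 tested members were higher, 11 were lower and 23 were not called (edgeR quasi-likelihood test, Benjamini-Hochberg adjusted p under 0.05 over all genes). Among all genes tested 21.8% were called higher and 23.8% lower, 45.5% in all, so the family's share of calls was near the background. The median log2 fold change, mLN over spleen, was -0.0088 over the tested members and -0.0018 over all genes. Only 1 member rose by at least 2-fold and 4 fell by as much, where 3.67% of all genes rose and 8.60% fell by that size. The summed level of the family was 1796 ± 22.4 TPM (SD, n = 3), a level scaled to transcript length and library size, in spleen and 1757 ± 13.6 in mLN. In CPM the family's sum overlapped between the organs, at 3006 to 3077 in spleen and 3024 to 3082 in mLN. Of the 20 calls, 14 held in each of the 14 alternative analyses, 6 of them rises and 8 falls.

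**Figure D1:**
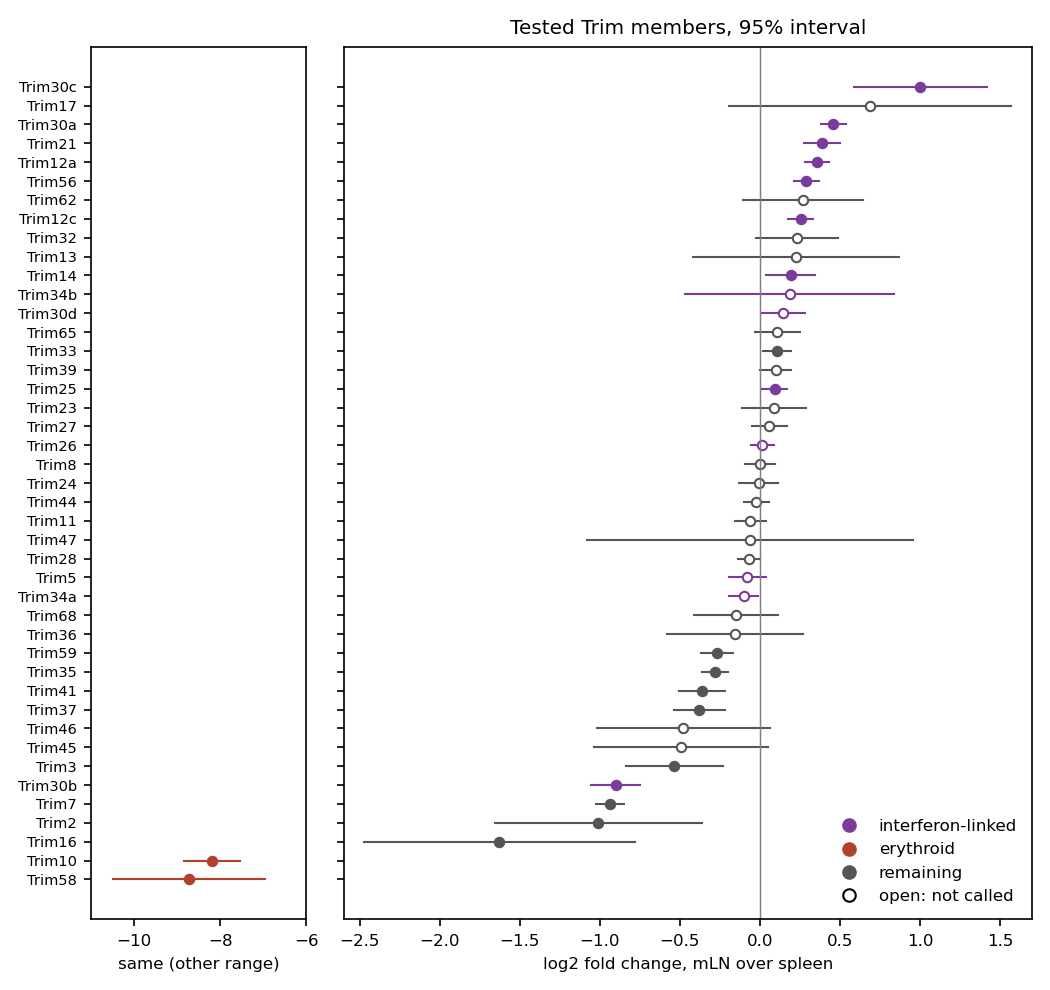
Log2 fold change, mLN over spleen, with its 95% confidence interval, for the 43 tested Trim members, ordered by change and coloured by role, with open points for members not called and a separate axis range for the 2 erythroid members, whose fitted values rest on 3 and 0 mLN counts. Interferon-linked members (purple) lie mostly above 0, with Trim30b at -0.90.

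Of the family's 9 rises, 8 were of interferon-linked members. Of the 14 tested in that class, 8 were higher in mLN, 1 was lower and 5 were not called, with a median log2 fold change of 0.19 beside -0.0018 for all genes. Over all genes 21.8% were called higher and 23.8% lower. The class was set with earlier results of these data known, so these counts are not independent of the data. The summed level of its members was 774, 746 and 755 TPM in the spleen libraries and 865, 853 and 826 TPM in the mLN libraries. The 3 mLN sums were all above the 3 spleen sums. They made up 42.2% ± 0.255 (SD, n = 3) of the family's TPM in spleen and 48.2% ± 0.932 in mLN. Much of the rise in the sum came from Trim12a, at 161.5 ± 4.73 TPM in spleen and 215.7 ± 6.26 in mLN. Its effective length (the transcript length open to reads), by which TPM is scaled, was shorter in every mLN library. It averaged 1326 bases in spleen and 1234 in mLN. In 9 of the 14 every mLN library was above every spleen library, in 2 every one was below, and 3 overlapped, beside 25.5% and 27.5% of all genes above and below.

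Trim30a, which restrains Toll-like receptor signalling to NF-kB, was measured at 139, 133 and 135 CPM (counts scaled to library size) in spleen and at 190, 189 and 180 CPM in mLN. The groups did not overlap, and it rose by 0.46 on the log2 scale (SE 0.0377, adjusted p = 1.01e-13). Trim21, a cytosolic receptor for antibody-coated pathogens, was at 67.4, 65.4 and 64.1 CPM in spleen and at 90.7, 83.1 and 83.9 CPM in mLN. Every mLN library exceeded every spleen library, with a rise of 0.39 (SE 0.0556, adjusted p = 1.54e-07). Trim56, an antiviral ligase, was at 210, 205 and 207 CPM in spleen and at 260, 266 and 233 CPM in mLN. It too rose without overlap, by 0.29 (SE 0.0378, adjusted p = 4.11e-08).

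Trim12a and Trim12c, mouse counterparts of the retroviral restriction factor TRIM5, rose together. Trim12a was at 147, 140 and 146 CPM in spleen and at 185, 189 and 181 CPM in mLN, a log2 change of 0.36 (SE 0.0371, adjusted p = 7.48e-11). Trim12c was at 125, 124 and 126 CPM in spleen and at 146, 153 and 148 CPM in mLN, a log2 change of 0.25 (SE 0.0388, adjusted p = 5.27e-07). Neither overlapped between the organs. Trim5 itself, whose window shares the long identical run with that of Trim12a, was at 75.7, 77.2 and 73.6 CPM in spleen and at 70.7, 74.7 and 68.8 CPM in mLN. Its ranges overlapped and its log2 change of -0.08 was not called (95% interval -0.19 to 0.03, adjusted p = 0.271).

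Trim25, the ligase that ubiquitinates the RNA sensor RIG-I, differed least among the rises. Its levels were 147, 147 and 151 CPM in spleen and 163, 152 and 159 CPM in mLN, without overlap but with a small gap. The log2 change was 0.09 (SE 0.0381, adjusted p = 0.047), and the call was lost when any spleen library, or mLN replicate 1 or 3, was left out, with adjusted p up to 0.210. With effective lengths (the transcript lengths open to reads) in the fit its log2 change was 0.04 (adjusted p = 0.618). Trim14, a RING-less adaptor of mitochondrial antiviral signalling, was at 36.2, 38.1 and 34.4 CPM in spleen and at 42.6, 42.2 and 39.3 CPM in mLN. Its log2 change was 0.19 (adjusted p = 0.0345), and the call was lost without spleen replicate 1 or 3 or mLN replicate 1 or 2 (adjusted p up to 0.136), as it was with effective lengths in the fit (adjusted p = 0.0935). Nans, on the opposite strand, overlaps 31.3% of the exonic bases of Trim14, and the strand setting of the counting is not given in the sources used here.

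Members that rose were found both with and without an ISRE core. Of the 8 tested interferon-linked members with a match, 4 were higher and 0 lower. Of the 5 with a window and no match, 3 were higher and 1 was lower. Beside these counts, 21.8% of all genes tested were called higher and 23.8% lower. The sets are small, and several windows with a match share long identical runs. The counts therefore cannot show whether a match goes with a rise. Among those with a match, Trim26 stood at 201, 202 and 188 CPM in spleen and 197, 197 and 204 CPM in mLN, which overlapped. Its log2 change was 0.01 (95% interval -0.06 to 0.09, adjusted p = 0.782).

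**Figure D2:**
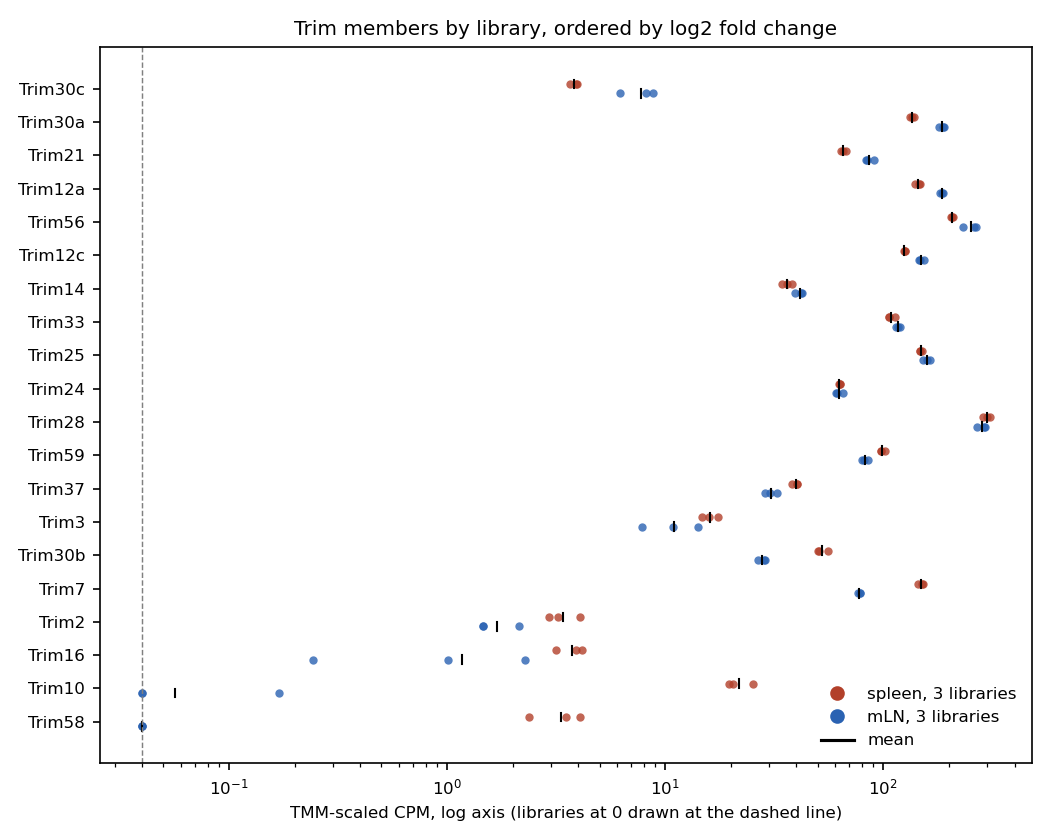
Level in CPM, on a log axis, of 20 Trim members in the 3 spleen (red) and 3 mLN (blue) libraries, 1 point a library, with a tick at each mean and libraries at 0 drawn on the dashed line. The mLN libraries of Trim58 all lie on that line, and those of Trim16 spread from 0.243 to 2.27 CPM.

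On chromosome 7 (GRCm38 chr7:104218793-104507849) 10 members lie within 289.1 kb, and neighbours there changed in opposite directions. Trim30b, at chr7:104355382-104369884, was at 50.01, 55.6 and 50.8 CPM in spleen and at 28.7, 26.7 and 28.3 CPM in mLN. It was lower in every mLN library and fell by 0.90 on the log2 scale (SE 0.0760, adjusted p = 2.18e-13), the only fall called among the interferon-linked members. Trim30c, next to it at chr7:104382065-104400837, was at 3.91, 3.96 and 3.65 CPM in spleen and at 8.81, 6.19 and 8.18 CPM in mLN. It rose by 1.00 (SE 0.206, adjusted p = 8.06e-05), the family's single rise of at least 2-fold. The rise lies at that limit. Without mLN replicate 1, mLN replicate 3 or spleen replicate 3 it was 0.89, 0.96 or 0.97 on the log2 scale, which left 0 called rises of that size. It was also just under 2-fold with upper-quartile scaling (0.9882), a replicate block (0.9935), no low-count filter (0.997) and a stricter filter (0.9979). In the remaining alternatives it was at least 2-fold. Within a library the log2 ratio of Trim30c to Trim30b went from -3.76 ± 0.0738 (SD, n = 3) in spleen to -1.87 ± 0.214 in mLN.

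Ratios between some close copies in the cluster also differed between the organs. Ratios were taken for 5 pairs, chosen after their values were seen: 4 whose windows share a run of at least 50 bases, and Trim30c with Trim30b, which share none of that length. The log2 ratio of Trim5 to Trim12a was -0.94 ± 0.0698 (SD, n = 3) in spleen and -1.37 ± 0.0340 in mLN. That of Trim30a to Trim30d was 1.44 ± 0.0807 in spleen and 1.7501 ± 0.0518 in mLN. The groups separated in each of the 5 pairs. The exact two-sided permutation test gave p = 0.1 each, the smallest that 3 against 3 libraries allow (0.1 after Benjamini-Hochberg adjustment over the 5). Because the pairs were chosen after their values were seen, this separation is a description and not a test result. The pairs among Trim5, Trim12a and Trim12c share members and are not independent.

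These genes share transcript sequence, so that reads could be divided between them. Of the 50-base stretches of Trim34b, 56.8% also occur in another gene, as do 39.8% of Trim34a, 36.3% of Trim5 and 33.04% of Trim12c. The share is 10.4% for Trim12a, 7.49% for Trim30d, 5.98% for Trim30a, 0.66% for Trim30c and 0.55% for Trim30b. The values of Trim34a, Trim34b, Trim5 and Trim12c are therefore uncertain. How reads were assigned among the copies was not measured. Trim34a and Trim30d were not called, with log2 changes of -0.10 (adjusted p = 0.0662) and 0.15 (adjusted p = 0.0704).

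**Figure D3:**
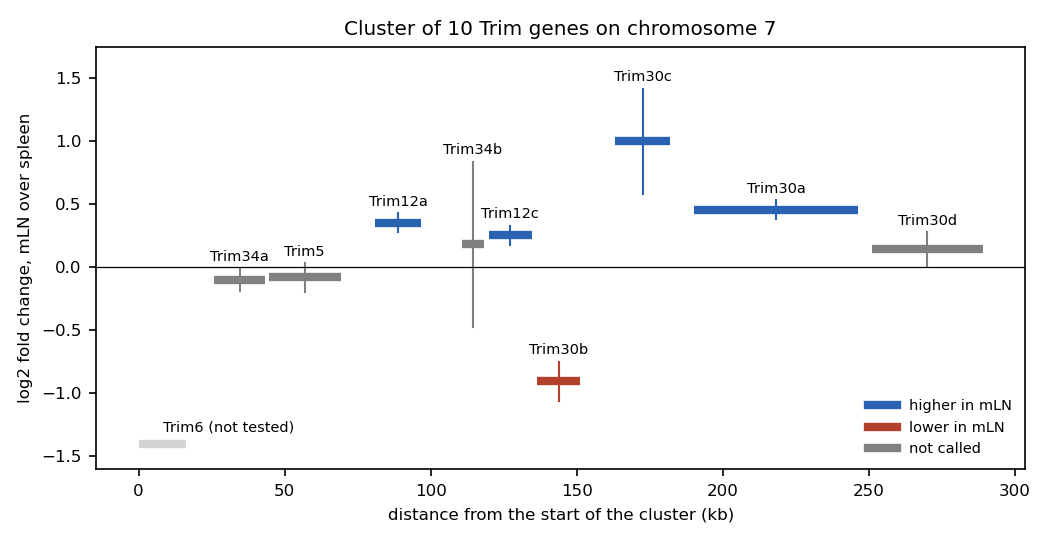
Log2 fold change, mLN over spleen, with its 95% confidence interval, for the members of the chromosome 7 cluster, against distance in kb from its start; horizontal bars span each gene, and Trim6 was not tested. Trim30b, at -0.90, lies between Trim12c at 0.25 and Trim30c at 1.00.

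The erythroid members were nearly absent from mLN. Trim10, which takes part in terminal red cell differentiation, was at 25.2, 20.4 and 19.7 CPM in spleen and at 0, 0.169 and 0 CPM in mLN. With 1103 counts in spleen and 3 in mLN, the ratio scaled for depth was 328.2 (95% counting interval 112 to 1594, adjusted p = 5.05e-24). Trim58, which removes dynein as erythroblasts expel their nucleus, was at 4.08, 2.38 and 3.53 CPM in spleen and at 0 in every mLN library. Its 169 spleen counts against 0 make it at least 50.3-fold lower in mLN, taking a floor of 3 counts over the 3 mLN libraries (adjusted p = 4.72e-11). With Trim58 at that bound the pair's median log2 change was at most -7.01, and the fitted median was -8.47.

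Other red cell genes fell with them. All 16 tested genes of the erythroid list were lower in mLN, beside 23.8% of all genes. Their summed level went from 2670 to 2786 CPM across the spleen libraries to 92.3 to 104 CPM across the mLN libraries. These genes moved with Trim10 and Trim58, and the part of red cell precursors in the fall of the pair was not tested. The Trim10 window held 1 match to the GATA motif (AGATAA or TGATAA, both strands), present in 18.6% of all windows, and that of Trim58 held none. Part of the Trim10 window is shown with the motif in capitals.
Trim10 chr17:36869361-36869460 (plus strand): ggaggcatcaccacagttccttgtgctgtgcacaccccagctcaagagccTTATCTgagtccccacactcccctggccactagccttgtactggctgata
Trim10 lies on chromosome 17 within 73.1 kb that hold 5 members, of which it and Trim26 were tested.

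Of the 3 tested chromatin cofactors, 1 was called higher, beside 21.8% of all genes, and 3 members are too few to describe the class. Trim28, the corepressor of KRAB zinc finger proteins, had the highest TPM of the family in both organs, at 247.8 ± 6.74 in spleen and 250 ± 11.7 in mLN (SD, n = 3). Its counts were 300, 308 and 288 CPM in spleen and 270, 294 and 289 CPM in mLN, with overlap and a log2 change of -0.07 that was not called (95% interval -0.14 to -0.0027, adjusted p = 0.0846). Trim24 was at 63.1, 63.3 and 62.5 CPM in spleen and at 61.4, 65.5 and 60.5 CPM in mLN. It was not called either (log2 change -0.01, 95% interval -0.13 to 0.11, adjusted p = 0.923). Trim33, a regulator of SMAD signalling, was at 113, 107 and 106 CPM in spleen and at 117, 119 and 115 CPM in mLN. Its groups did not overlap, and its rise of 0.11 (adjusted p = 0.0465) was lost without spleen replicate 2 or 3 or mLN replicate 1 or 2, with adjusted p up to 0.159, and with effective lengths in the fit (adjusted p = 0.0711).

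Trim7, a binding partner of glycogenin, had the lowest adjusted p among the falls outside the erythroid pair. It was at 144, 152 and 150 CPM in spleen and at 78.4, 76.8 and 78.0 CPM in mLN. The groups lay far apart, and it fell by 0.94 on the log2 scale (SE 0.0441, adjusted p = 1.77e-21). Trim41, which lies with it in 45.8 kb of chromosome 11, also fell, by 0.36 (adjusted p = 4.03e-05). Trim37, linked to peroxisomes and centrosomes, was at 38.1, 40.4 and 40.3 CPM in spleen and at 28.8, 30.1 and 32.6 CPM in mLN, and fell by 0.38 without overlap (adjusted p = 9.63e-05). Trim35 fell by 0.28 (adjusted p = 1.64e-07). The membrane-anchored Trim59 was at 97.6, 97.2 and 102 CPM in spleen and at 80.2, 81.6 and 85.0 CPM in mLN, and fell by 0.27 (adjusted p = 1.66e-05).

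Of the NHL-repeat members, RNA-binding or scaffold proteins studied mostly in neurons and muscle, 2 of 3 tested fell. Of all genes 23.8% were called lower, and 3 members are too few to describe the class. Trim2 was at 3.22, 2.92 and 4.07 CPM in spleen and at 2.14, 1.46 and 1.46 CPM in mLN, a log2 change of -1.01 (adjusted p = 0.00852). The groups did not overlap, but the call was lost without spleen replicate 3 (adjusted p = 0.0685). Trim3 was at 15.9, 14.7 and 17.5 CPM in spleen and at 14.2, 10.9 and 7.86 CPM in mLN, a log2 change of -0.53 (adjusted p = 0.00341), and its mLN libraries were spread widely. Trim32 was not called on counts (log2 change 0.23, adjusted p = 0.144). Its effective length was 2486, 2584 and 2761 bases in spleen and 1873, 1990 and 1664 bases in mLN. With these lengths in the fit its log2 change was 0.74 (adjusted p = 0.0059), and Trim2 and Trim3 lost their calls. Trim2 was then at -0.53 (adjusted p = 0.388) and Trim3 at -0.40 (adjusted p = 0.191).

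Trim16, a RING-less member that acts at damaged lysosomes, was at 3.16, 4.14 and 3.89 CPM in spleen and at 2.27, 1.01 and 0.243 CPM in mLN. It was lower in every mLN library, with a log2 change of -1.63 (SE 0.412, adjusted p = 0.00177). Its mLN libraries differed widely, and the change was -2.46 without mLN replicate 1, -1.50 without mLN replicate 2 and -1.20 without mLN replicate 3. The call was lost with DESeq2 (adjusted p = 0.0601) and with effective lengths in the fit (log2 change -1.403, adjusted p = 0.231). In all, 1 of the 27 tested remaining members was higher, 8 were lower and 18 were not called, with a median log2 change of -0.06. Of all genes tested, 21.8% were called higher and 23.8% lower. The share of falls was thus near the background, and that of rises was below it. Which members remain depends on the classes, which were set with earlier results of these data known. The summed level of the remaining members was 1019 ± 5.80 TPM in spleen and 909 ± 14.9 TPM in mLN (SD, n = 3).

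**Figure D4:**
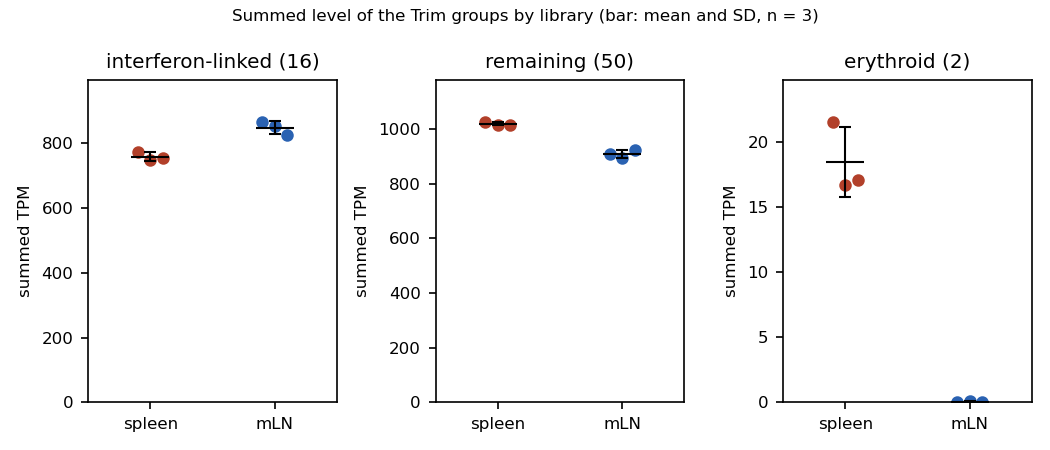
Summed TPM of the interferon-linked, remaining and erythroid Trim members in each library (points), with the mean and SD (n = 3) of each organ. The interferon-linked sum is higher in all 3 mLN libraries, and the erythroid and remaining sums are lower.

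The 25 members that were not tested included all 7 of the reproductive-tissue class. Of the 25, 8 had 0 counts in all 6 libraries and 17 had at least 1, and the highest mean among them was 0.466 CPM. For the 27 members at 20 CPM or more in both organs, the median coefficient of variation between libraries was 3.25% in spleen and 3.78% in mLN.

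Other genes of the interferon pathway were also mostly higher in mLN. Of 25 tested, 18 were higher in mLN and 3 were lower, with a median log2 change of 0.66, and 7 rose by at least 2-fold. The shares over all genes were 21.8% higher, 23.8% lower and 3.67% higher by at least 2-fold. The list was chosen with earlier results of these data known. Ifi44 rose by 2.52 (SE 0.472), on 27 counts in spleen and 134 in mLN, where it spread widely at 3.11 ± 1.62 CPM (SD, n = 3). Ifit1, which binds viral RNA, rose by 2.22 (SE 0.124), whereas Rsad2, the antiviral enzyme viperin, fell by 0.72. Pml, a TRIM protein under another name that organises nuclear bodies, averaged 379.9 ± 4.58 CPM (SD, n = 3) in the spleen libraries and 303.3 ± 6.80 CPM in the mLN libraries, and fell by 0.33 (adjusted p = 3.48e-12). Mid1, a microtubule-bound relative, rose by 0.69 (adjusted p = 0.00251). Mefv, the pyrin gene, and Mid2 were not called, with log2 changes of -0.20 (adjusted p = 0.310) and -0.80 (adjusted p = 0.285).

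**Figure D5:**
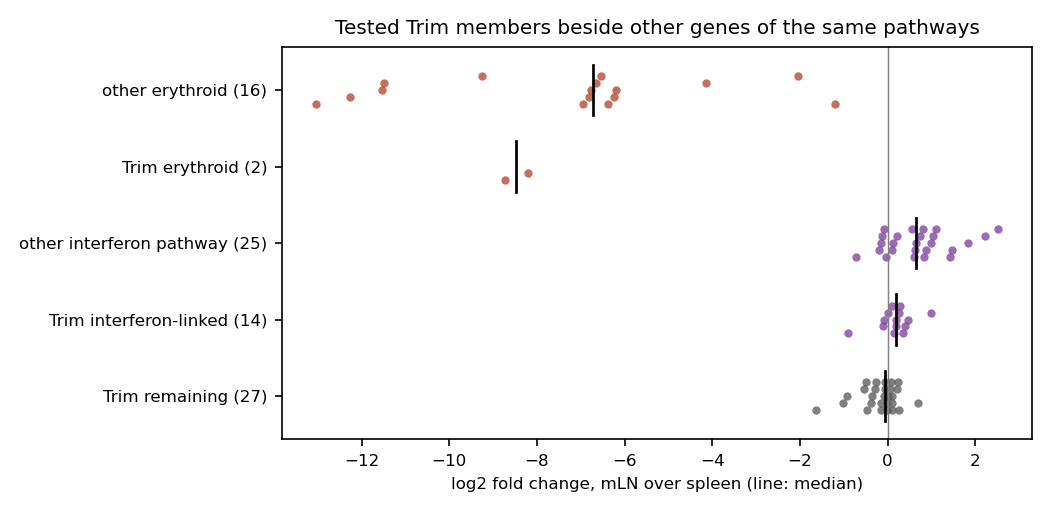
Log2 fold change, mLN over spleen, of the tested Trim members by role and of other erythroid and interferon pathway genes, 1 point a gene, with a line at each median. The median is 0.66 for the other interferon pathway genes and 0.19 for the interferon-linked Trim members.

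RNA of cell type markers differed between the organs alongside these changes. All 8 T cell markers were higher in mLN, with sums of 771.6 to 782.2 CPM in spleen and 1737 to 1777 CPM in mLN. All 8 B cell markers were lower, from 5887 to 6033 CPM down to 3410 to 3464 CPM, and all 7 neutrophil markers were lower, from 1403 to 1430 CPM down to 1.24 to 2.34 CPM. All 5 plasma cell markers and 2 of 3 tested megakaryocyte markers were also lower. The other lists were mixed: 2 dendritic cell markers were higher and 6 lower, 1 NK cell marker higher and 4 lower, and 1 macrophage and monocyte marker higher and 4 lower. Of all genes 21.8% were called higher and 23.8% lower. Ptprc, the antigen of the selection, averaged 2191 ± 39.0 CPM (SD, n = 3) in the spleen libraries and 2675 ± 35.0 CPM in the mLN libraries. The part of these marker differences in the Trim differences was not tested. The libraries held 12584244 to 18119551 counts.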

How the data were processed

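RNA-seq of CD45+ cells gave 1 table per library, 3 of spleen and 3 of mLN. Per the submitters' processing notes, the authors used STAR, RSEM and mm10; for versions, annotation and strand setting, the sources used here give nothing. The deposited tables hold, per the file headers, RSEM expected counts, TPM and effective lengths per gene. Identifiers were named with GENCODE M21: 55227 of 55487 matched.

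Expected counts were rounded, filtered with filterByExpr, scaled by TMM and tested with edgeR 4.0.16 (R 4.3.3) by the quasi-likelihood test, mLN against spleen, with Benjamini-Hochberg adjustment over 14427 genes. Tests between organs used counts, and values per library are in CPM. TPM was used for levels between genes and for sums over classes. Totals were 12584244 to 18119551 counts a library. No molecular identifiers are mentioned, and the counting interval of Trim10 and the floor of Trim58 therefore include counting error alone; intervals of log2 changes come from the edgeR fit. Scripts were tested on simulated data. DESeq2 1.42.0, other scalings and filters, an effective-length offset, a replicate block and leaving out each library were alternatives.

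Members and lists were chosen with earlier results of these data known. Named members were Trim30a, Trim21, Trim25, Trim10, Trim58, Trim28, Trim33 and Trim24, plus, among members called at a mean of 1 CPM or more, the 8 largest rises, the 8 largest falls and the largest of each class; other members are named with fewer values. Outside the family, up to 2 rises and 2 falls per list and the 4 TRIM relatives could be named.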

Additional observations from a re-analysis of the deposited data

How the results depend on the processing

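No result changed direction while called in any of the 14 alternatives. Members called higher numbered 6 to 9 and lower 8 to 13, and genes called in all fell to 4686 with effective lengths in the fit. Leaving out 1 library at a time gave a median log2 change of 0.17 to 0.25 for the interferon-linked members, highest without mLN replicate 3, and of -10.05 to -8.21 for the fitted values of the erythroid pair, lowest without mLN replicate 2, which held the only Trim10 counts in mLN. DESeq2 lost the calls of Trim14, Trim16, Trim25 and Trim33, and upper-quartile scaling lost Trim14, Trim25 and Trim33 and gained Trim28 and Trim34a. The causes were not tested. With the replicate block, 9 members were higher and 11 lower, the same 20 calls, and 6455 genes were called. Same-numbered libraries deviated together only weakly (correlations of 0.03, 0.03 and -0.01), and replicate 3 did not correlate best with its own number, so the numbers were not taken to pair them. The members not tested had means of at most 0.466 CPM, and for those at 0 counts low depth and absence cannot be told apart.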
